A study of Mus musculus with 18 samples.

Results

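The genes described here lie on mouse chromosome 4 within 5 Mb of Dmrta2, the gene that the study calls Dmrt5 (ENSMUSG00000047143, mm10 chromosome 4, 109978053 to 109983687). A gene was taken when its body lay at least partly in that window and at least 4 of the 18 libraries held 10 or more of its reads, and genes of the Dmrt name family were left out. Of the 166 genes annotated in the window, 67 met the rule, among 16486 genes of the whole data set that passed the same count rule. The choice used position and total abundance, not the comparison between genotypes. Of the 67 genes, 55 code for proteins, 55 lie at lower coordinates than Dmrta2 and 12 at higher ones. The statistical test covered 65 of them, since Lexm and A730015C16Rik fell under its filter on low counts.

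RNA came from cortical tissue dissected at E12.5 from mouse embryos of the strain C57BL/6. There were 4 libraries of wild type (WT), 5 of Dmrt3-/- (Dmrt3 KO), 4 of Dmrt5-/- (Dmrt5 KO) and 5 of Dmrt3-/-;Dmrt5-/- embryos (double KO). All genotypes share the strain, the stage and the tissue. The labels give neither the construction of the alleles nor the number of embryos behind a library, so p-values measure the spread between these libraries, which may be partly technical.

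Dmrta2 and Dmrt3 encode transcription factors with a DM domain, a zinc-containing DNA-binding module. Both are made in graded fashion in progenitors of the dorsal telencephalon, where they act in patterning of the cortex and the formation of the cortical hem. A targeted allele that is bred to homozygosity carries with it the DNA on either side of the gene, so that genes near the target can differ between mutant and wild type in the origin of their own DNA as well as in the state of the factor. In these data each of the 9 libraries that lack Dmrt5 also carries the mutated locus with its flanks on both chromosomes. The labels give C57BL/6 for every library and do not give the origin of the DNA around the allele. The consequences of losing the factor and of the linked DNA cannot be told apart for any gene of the region.

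Promoter sequences are shown for the gene with the lowest adjusted p in the region and for a gene that rose. Also shown is a neighbour of Dmrta2 that held the DM-domain core before 1 of its starts. The sequences are the 250 bases before a RefSeq transcription start on the gene's own strand, 5′ to 3′. The build is GRCm38.p6, which has the same coordinates as mm10. For Tceanc2 (chr4:107178367-107178616, minus strand) capitals mark the bases that also lie in the window before the start of its oppositely oriented neighbour Tmem59. For Elavl4 (chr4:110351912-110352161, minus strand) capitals mark the motif. The Scp2 window is chr4:108118548-108118797, minus strand.

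Tceanc2: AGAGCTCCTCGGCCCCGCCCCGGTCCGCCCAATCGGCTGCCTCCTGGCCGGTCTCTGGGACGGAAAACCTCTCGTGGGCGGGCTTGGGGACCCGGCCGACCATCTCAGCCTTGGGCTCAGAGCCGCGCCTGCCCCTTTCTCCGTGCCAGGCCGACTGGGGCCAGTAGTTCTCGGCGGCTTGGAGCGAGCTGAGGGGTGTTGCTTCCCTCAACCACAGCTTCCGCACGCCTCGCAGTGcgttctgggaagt
Scp2: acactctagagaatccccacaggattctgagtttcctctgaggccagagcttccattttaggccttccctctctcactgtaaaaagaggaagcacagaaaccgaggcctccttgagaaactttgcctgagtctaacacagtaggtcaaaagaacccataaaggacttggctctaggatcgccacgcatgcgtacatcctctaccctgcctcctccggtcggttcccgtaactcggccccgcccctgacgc
Elavl4: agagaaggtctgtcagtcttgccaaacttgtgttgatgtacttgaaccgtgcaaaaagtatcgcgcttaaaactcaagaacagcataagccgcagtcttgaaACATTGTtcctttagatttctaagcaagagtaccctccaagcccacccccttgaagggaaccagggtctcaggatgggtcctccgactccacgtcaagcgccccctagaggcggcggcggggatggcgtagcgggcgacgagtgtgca

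The RefSeq promoter table matched 53 of the 67 genes. The motif searched was ACATTGT, the core of the DM-domain site, on both strands of windows of 300 bases, 250 before and 50 after each start. It occurred in 1 of the 67 windows of these genes (1.49%), and in 974 of the 32851 windows of all genes (2.96%). That window belongs to 1 start of Elavl4, and the windows of the other Elavl4 starts held no match. The match is a description of the letters in this window and not a binding site. The 237 bases that the Tceanc2 and Tmem59 windows share lie between start sites 264 bases apart, so both genes have nearly the same stretch of upstream sequence.

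Each library held between 19602718 and 33072896 counts. Dmrta2 itself stood at 194 ± 29.7 CPM, the normalised read count, for WT (SD, n = 4), 219 ± 53.7 for Dmrt3 KO (n = 5), 10.7 ± 9.64 for Dmrt5 KO (n = 4) and 3.55 ± 1.34 for the double KO (n = 5). The highest Dmrt5 KO library was replicate 1 at 25.1 CPM, and every library labelled as lacking Dmrt5 was below every library with the intact locus. The tissue was checked against marker genes fixed for it. The 8 pallial progenitor markers summed to 2308 to 2543 CPM in WT and to 1545 to 1765 in the double KO, and none of the 8 was at 0. These sums joined opposite directions. Between libraries lacking Dmrt5 and the others, 5 of the 8 fell and 2 rose at an edgeR adjusted p under 0.05. Their log2 fold changes ran from -2.68 to 0.60, and 5.35% of all tested genes passed. The 6 markers of glutamatergic neurons summed to 439 to 982 CPM in WT and 173 to 334 in the double KO. The 8 subpallial markers summed to 718 to 1016 CPM in WT and 1517 to 2823 in the double KO, and the 7 markers of the cortical hem and choroid plexus to 138 to 325 and 7.4 to 15.8. Markers of mesenchyme, a tissue outside the cortex, summed to between 746 and 2397 CPM in WT, 560 and 2672 in Dmrt3 KO, 414 and 1655 in Dmrt5 KO, and 41.9 and 2053 in the double KO. In whole tissue, fewer cells of a type and less RNA per cell cannot be told apart.

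The main comparison set the 9 libraries with the mutated Dmrta2 locus against the 9 with the intact one, averaging over the presence and absence of Dmrt3. Most genes around Dmrta2 did not pass the test, and 6 genes more than 1 Mb away did, among them Tceanc2, Echdc2 and Podn, lower where the locus was mutated, and Scp2 and Mroh7, higher there. In edgeR's quasi-likelihood test, adjusted over all tested genes, 2 of the 65 tested genes rose and 4 fell at an adjusted p under 0.05, the threshold for calling a gene. Among all 16236 tested genes 5.35% were called, against 9.23% (6 of 65) here. By direction the shares of all genes were 2.61% higher and 2.75% lower, against 3.08% and 6.15% of the region. At an unadjusted p under 0.05 the shares were 20% of the region and 16.8% of all tested genes. The median log2 fold change of the region was -0.01 and its median size 0.15, against -0.00 and 0.13 over all genes. The 95% interval of the difference lay within 1.5-fold of no difference for 35 of the 65 genes (53.8%), against 59.5% of all genes. The number of genes lower was 2 without Dmrt5 KO replicate 2 or without Dmrt5 KO replicate 5. In each of these fits 3.93% of all tested genes were called in either direction, against 6.15% of the region. Without Dmrt5 KO replicate 2 the number lower over all genes went from 446 to 338. The number higher in the region was 4 without double KO replicate 4, where the number over all genes went from 423 to 724.

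Tceanc2 (ENSMUSG00000028619, chromosome 4, 107134155 to 107179116, minus strand), 2.80 Mb from Dmrta2, encodes a protein with domains like the N-terminal and central domains of the transcription elongation factor TFIIS. Its level in WT was 30.7, 30.5, 29 and 24.9 CPM, and in Dmrt3 KO 29.9, 32.1, 29.8, 29 and 31.1 CPM. In Dmrt5 KO it was 15.5, 12.1, 11 and 12.6 CPM, and in the double KO 14.33, 11.05, 12.54, 11.16 and 14.12 CPM. All libraries with the mutated locus were below all with the intact one, with a gap from 15.5 to 24.9 CPM. Tceanc2 fell 2.33-fold (log2 fold change -1.22 ± 0.09 SE, adjusted p 1.04e-07 in edgeR). The difference was -1.17 in Dmrt5 KO against WT and -1.26 in the double KO against Dmrt3 KO (edgeR adjusted p 0.000177 and 3.12e-06). Tceanc2 was 1 of 2 genes of the region called in both of these comparisons, which share no library. They are 3.08% of its tested genes, where 0.721% of all tested genes were called in both in 1 direction. In the double KO against Dmrt5 KO, which both carry the mutated locus, the Tceanc2 difference was -0.02 (95% interval -0.27 to 0.24).

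Tmem59, a membrane protein gene that starts next to Tceanc2 and runs the other way, was not called. Its level was 130 ± 28.7 CPM for WT, 154 ± 16.2 for Dmrt3 KO, 156 ± 18.3 for Dmrt5 KO and 145 ± 33.6 for the double KO. The log2 difference by locus was 0.09 with a 95% interval from -0.16 to 0.35, so a fall of the size seen in Tceanc2 lay outside it. The 2 genes overlap on opposite strands and the library kit does not mark strand, so reads from the overlap cannot be assigned between them. Tceanc2 also overlaps Gm12802.

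Echdc2 (ENSMUSG00000028601, 108165437 to 108179308, plus strand), 1.8 Mb away, encodes a mitochondrial protein of the enoyl-CoA hydratase family. Levels in WT were 12.9, 21.5, 16.2 and 11.4 CPM, and in Dmrt3 KO 17.8, 15.6, 16, 13.1 and 21.3 CPM. Levels in Dmrt5 KO were 12, 10.8, 12 and 10.9 CPM, and in the double KO 10.3, 9.36, 9.48, 13.2 and 5.62 CPM. The groups overlapped, with the lowest WT library in the range of the Dmrt5 KO libraries. Echdc2 fell 1.54-fold (log2 fold change -0.62 ± 0.15 SE, edgeR adjusted p 0.0219). It was called in the double KO against Dmrt3 KO (-0.81, adjusted p 0.0353) and not in Dmrt5 KO against WT (-0.44, adjusted p 0.503), and the difference between these differences was not called (-0.37, adjusted p 0.651 in edgeR). With the mesenchyme marker level of each library as a covariate the value was -0.38 and the call was lost (edgeR adjusted p 0.252). It was also lost without Dmrt5 KO replicate 2 or 5 (0.0544 and 0.0528), and the call in the double KO was lost when any of 8 libraries of the double KO and Dmrt3 KO was left out, with adjusted p up to 0.108.

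Podn (ENSMUSG00000028600, 108014791 to 108096445, minus strand), 1.88 Mb away, encodes podocan, a secreted proteoglycan with leucine-rich repeats. Its levels were 1.48, 1.28, 1.23 and 1.68 CPM in WT and 1.31, 1.15, 0.813, 0.994 and 1.12 CPM in Dmrt3 KO. They were 0.89, 0.788, 1.16 and 0.81 CPM in Dmrt5 KO and 0.587, 1, 0.4, 0.682 and 0.585 CPM in the double KO. Every WT library was above every Dmrt5 KO library, while Dmrt3 KO overlapped both groups lacking Dmrt5. Podn fell 1.6-fold (log2 fold change -0.68 ± 0.17 SE, edgeR adjusted p 0.0233). All 8 mesenchyme markers had lower fitted values with the mutated locus, with a median log2 difference of -0.85 (range -1.29 to -0.49), though none was called, and their part in the Podn value was not tested beyond the covariate fit. In that fit Podn was at -0.60 and its call was lost, with an edgeR adjusted p of 0.178, and it was lost without WT replicate 4 (0.0548) or Dmrt5 KO replicate 1, 2 or 5 (0.0517, 0.0616 and 0.0623).

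Scp2 (ENSMUSG00000028603, 108043839 to 108144998, minus strand), 1.83 Mb away, encodes sterol carrier protein 2 and the peroxisomal thiolase SCPx. Its levels were 26, 37.5, 31.1 and 23.1 CPM in WT and 20.3, 39.4, 31.9, 32.4 and 31.1 CPM in Dmrt3 KO. They were 45.6, 47.3, 44.2 and 45.7 CPM in Dmrt5 KO and 43, 41.8, 42.8, 41.4 and 48.2 CPM in the double KO. The libraries with the mutated locus lay in a narrow band above all libraries with the intact one, which spread more widely. Scp2 rose 1.47-fold (log2 fold change 0.56 ± 0.11 SE, edgeR adjusted p 0.0045). With the mesenchyme covariate the value was 0.49 and the call was kept near the threshold (edgeR adjusted p 0.0438). The separate comparisons gave 0.64 in Dmrt5 KO against WT and 0.49 in the double KO against Dmrt3 KO, neither called (edgeR adjusted p 0.0871 and 0.0912). The first was called without WT replicate 2 or Dmrt3 KO replicate 1 (0.0268 and 0.0293) and the second without Dmrt3 KO replicate 2 (0.0415). With all libraries DESeq2 called both (adjusted p 0.0127 and 0.0337). Podn and Scp2 overlap on 1 strand and had opposite directions, and how the authors' counting assigned shared reads is not given in the sources used here.

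Mroh7 (ENSMUSG00000047502, 106680417 to 106730925, minus strand), 3.25 Mb away, encodes a HEAT-repeat protein. It was near the limit of detection, at 0.403, 0.16, 0.466 and 0.145 CPM in WT and 0.307, 0.575, 0.503, 0.309 and 0.733 CPM in Dmrt3 KO. In Dmrt5 KO it stood at 0.643, 0.995, 0.478 and 0.84 CPM, and in the double KO at 1.08, 1.05, 0.801, 0.639 and 1.09 CPM. These are 3 to 28 reads a library, and the Dmrt3 KO range reached into that of the libraries lacking Dmrt5. Mroh7 rose 2.19-fold (log2 fold change 1.13 ± 0.26 SE, edgeR adjusted p 0.0123). With the mesenchyme covariate it was 0.93 and not called (edgeR adjusted p 0.127).

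**Figure D1:**
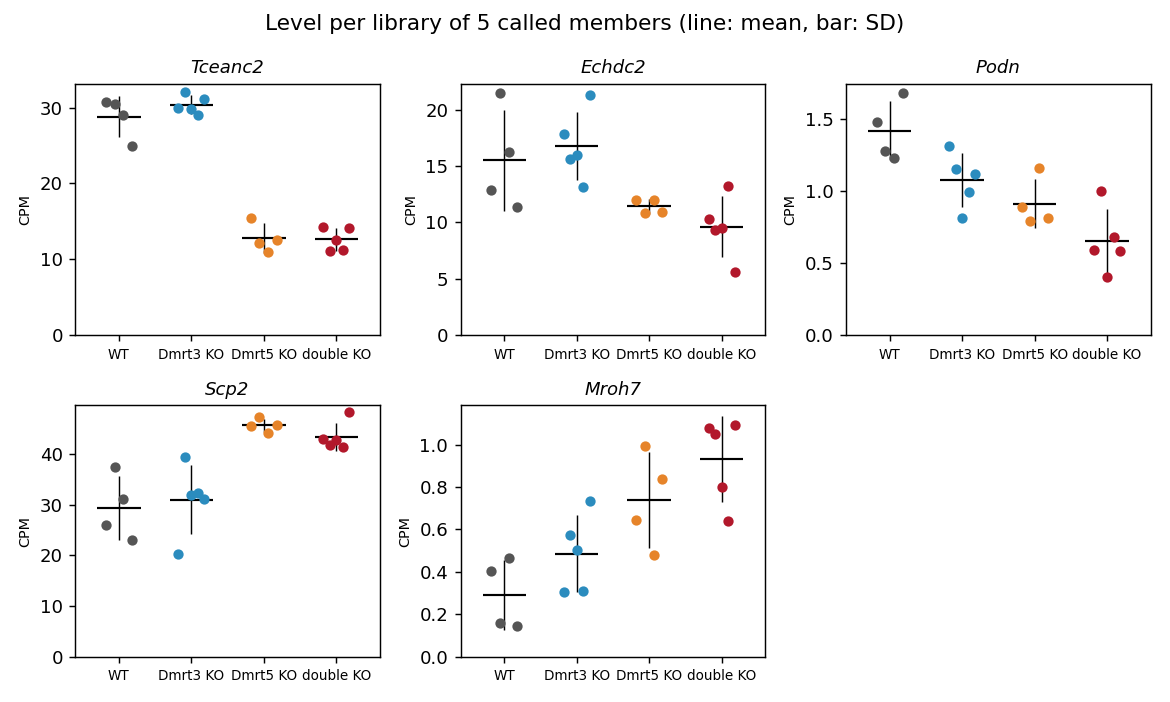
Level in CPM (y axis, linear from 0) of 5 genes called by locus, 1 point per library, in WT (n = 4), Dmrt3 KO (n = 5), Dmrt5 KO (n = 4) and double KO (n = 5), with a line at the mean and a bar of 1 SD. Tceanc2 sits lower and Scp2 higher in every library lacking Dmrt5, while the points of Echdc2, Podn and Mroh7 overlap between the kinds of locus.

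No library overlap by locus was seen for 3 of the 65 genes, among them Tceanc2 below and Scp2 above (4.62%, against 1.13% of all tested genes). None of the 6 genes was called in the interaction test, which asks whether the difference by locus changes with Dmrt3; its edgeR adjusted p ran from 0.651 for Echdc2 to 0.96 for Podn. In Dmrt5 KO against WT, 2 genes of the region fell and none rose (3.08% of 65, against 1.03% of all genes called in either direction and 0.69% lower). In the double KO against Dmrt3 KO, 3 fell and none rose (4.62%, against 3.7% of all genes in either direction and 1.96% lower). Without double KO replicate 4, 5 fell in the second comparison, with Trabd2b and Gm12829 added, and 1 rose, the low-count antisense gene Gm12786; these were named after their values were seen. In the same fit the calls over all genes went from 318 to 882 lower and from 282 to 555 higher. Unadjusted p-values under 0.05 numbered 12 in the first comparison (18.5%, against 11.3% of all genes) and 13 in the second (20%, against 17.4%). Libraries did not overlap for 10 genes in the first (15.4%, against 8.73% of all genes) and for 5 in the second (7.69%, against 4.8%).

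Over the 65 genes, 34 had the same sign in both comparisons (52.3%, against 48.9% of all tested genes). Pearson's r across the 65 genes was -0.16 and Spearman's rho 0.28, against 0.29 and 0.13 across all tested genes. Gm12786, an antisense gene that overlaps Ssbp3 and has at most 16 reads in any library, stood at -3.10 in the first comparison and 3.36 in the second. Without it, a choice made after seeing the data, r was 0.57 and rho 0.34 across 64 genes. No like removal was made for all tested genes, so these are not comparable with 0.29 and 0.13. With Gm12786 kept and the genes called by locus left out, r was -0.56 and rho 0.09 across 59 genes. Reads of Gm12786 and Ssbp3 cannot be told apart where they overlap, since the kit does not mark strand. Genes are not independent replicates, all values share one scaling, and these coefficients are descriptions.

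**Figure D2:**
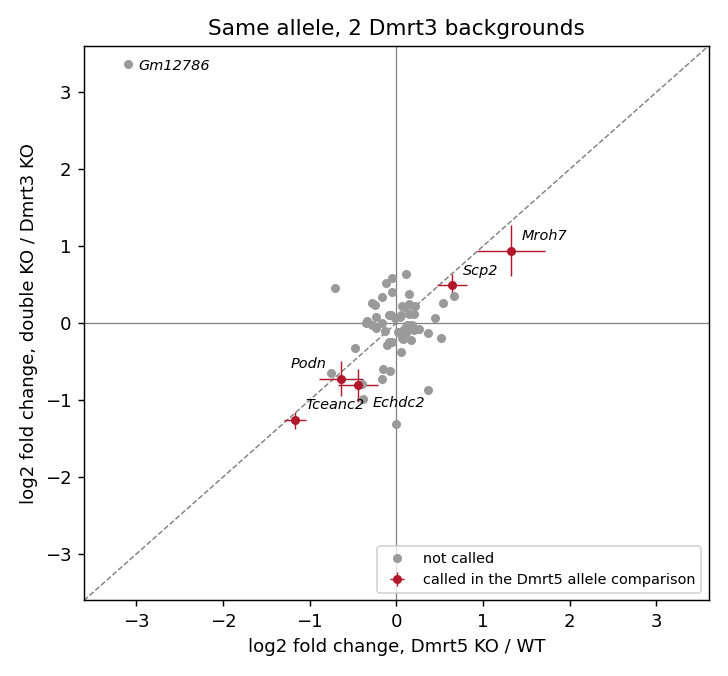
Log2 fold change in Dmrt5 KO against WT (x axis) and in the double KO against Dmrt3 KO (y axis), 1 point per gene of the region (n = 64), with bars of 1 SE for 5 genes called by locus and a dashed line of equal values. The 5 called genes lie near the dashed line at both ends, most others cluster around 0, and the low-count antisense gene Gm12786 lies alone at -3.10 and 3.36.

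The comparisons that hold the locus constant gave no call in the region. In Dmrt3 KO against WT none of the 65 genes was called by edgeR, where 0.0123% of all genes were. An unadjusted p under 0.05 was seen for 5 (7.69%, against 7.16% of all genes). DESeq2 also called none there. In the double KO against Dmrt5 KO none was called by either tool, where edgeR called 0.333% of all genes. There 1 had an unadjusted p under 0.05 (1.54%, against 4.71% of all genes). Agbl4, which encodes a carboxypeptidase that trims glutamate from tubulin, was not called in Dmrt3 KO, though every library there was below every WT library. The gap was narrow, from 0.92 to 0.961 CPM. Its levels were 1.48, 0.961, 1.44 and 1.19 CPM in WT and 0.92, 0.796, 0.658, 0.857 and 0.733 CPM in Dmrt3 KO, a log2 difference of -0.68 (edgeR adjusted p 0.433). Zfyve9 was the other gene without overlap there, so the count was 2 of 65 (3.08%), against 2.37% of all genes.

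The genes nearest to Dmrta2 were not called. Faf1, whose product binds ubiquitin and promotes cell death, ends 14 kb below Dmrta2. Its levels were 87.7, 92.7, 88.2 and 88.8 CPM in WT, 85.1, 93.1, 90.2, 88.5 and 83.2 in Dmrt3 KO, 99.2, 100, 104 and 107 in Dmrt5 KO, and 102, 89.1, 96.2, 92.1 and 99.6 in the double KO. All Dmrt5 KO libraries were above all WT libraries, while the double KO overlapped Dmrt3 KO. The difference by locus was small and precise, 0.16 on the log2 scale with a 95% interval of 0.05 to 0.27 (edgeR adjusted p 0.0904), and DESeq2 called it (adjusted p 0.000747).

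Cdkn2c, the CDK4 and CDK6 inhibitor p18 whose product slows entry into the cell cycle, lies 311 kb below Dmrta2. It stood at 31.8 ± 4.68 CPM for WT, 34.4 ± 4.22 for Dmrt3 KO, 43.1 ± 5.41 for Dmrt5 KO and 36 ± 6.37 for the double KO. The 4 Dmrt5 KO libraries, from 38.2 to 50.8 CPM, were above all 4 WT libraries, from 26 to 36.7 CPM. The difference by locus was 0.25 (edgeR adjusted p 0.224) and reached 0.30 with an adjusted p of 0.041 without double KO replicate 4, whose level was 25 CPM.

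On the other side, Elavl4, the neuronal RNA-binding protein HuD, lies 220 kb from Dmrta2. It stood at 104 ± 18.2 CPM for WT, 103 ± 28.6 for Dmrt3 KO, 116 ± 13.1 for Dmrt5 KO and 134 ± 48.6 for the double KO, where replicate 5 reached 207 CPM. The difference by locus was 0.27 with an interval from -0.09 to 0.62 (edgeR adjusted p 0.476). Agbl4 at 414 kb differed by 0.38, Bend5 at 1431 kb by 0.12 and Spata6 at 1736 kb by 0.20 (edgeR adjusted p 0.193, 0.743 and 0.471). On the lower side Rnf11, a RING finger protein gene at 493 kb, differed by 0.15 and Ttc39a at 533 kb by -0.12 (edgeR adjusted p 0.376 and 0.903). The noncoding genes Ttc39aos1 and Gm12807 had few reads and intervals from -0.98 to 1.03 and from -0.66 to 0.84, so changes below about that size were not detectable.

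**Figure D3:**
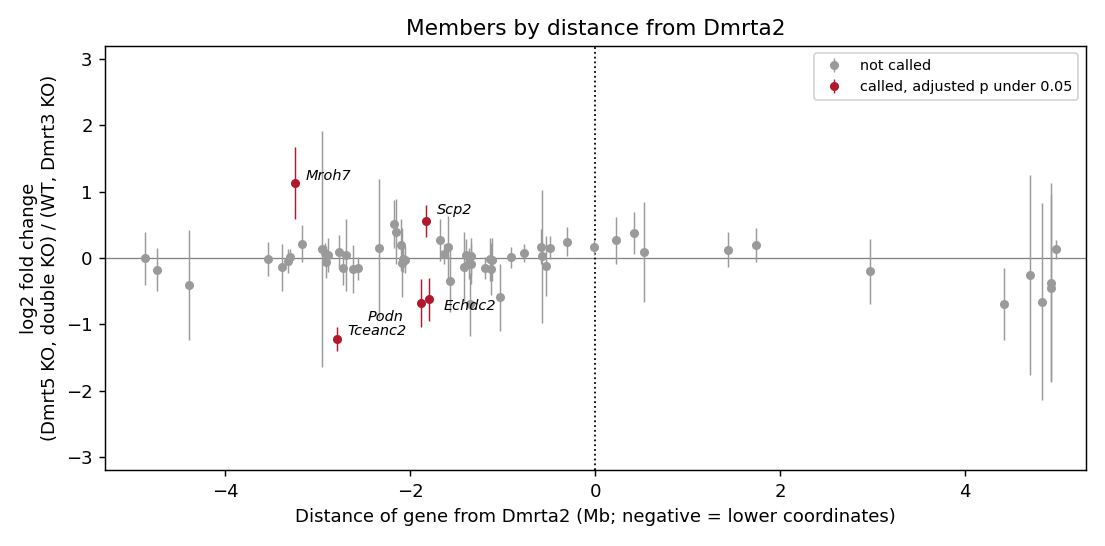
Log2 fold change by locus (y axis, libraries lacking Dmrt5 over libraries with it) against the distance of each gene body from Dmrta2 in Mb (x axis, negative for lower coordinates), for 64 genes with bars of the 95% interval. The 5 called genes, in red, all lie on the lower side between 1.8 and 3.25 Mb. The genes within 1 Mb have a median size of 0.15, the same as those from 1 to 2 Mb.

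Of the 11 tested genes within 1 Mb of Dmrta2 none was called, against 3 of 20 from 1 to 2 Mb. From 2 to 3 Mb it was 1 of 18, from 3 to 4 Mb 2 of 7 and from 4 to 5 Mb 0 of 9. With 11 genes and a background of 5.35%, a count of 0 does not set the nearest genes apart. The median size of the log2 difference was 0.15 within 1 Mb and also 0.15 from 1 to 2 Mb. All 6 called genes lay on the lower side, which holds 53 of the 65 tested genes, and none of the 12 on the higher side was called; with 12 genes and a background of 5.35%, a count of 0 sets no difference between the sides. Further out on chromosome 4 the shares were 4.63% from 5 to 10 Mb (5 of 108), 8.43% from 10 to 20 Mb (14 of 166) and 4.84% beyond 20 Mb (34 of 702), and on the other chromosomes 5.35% (803 of 15022). For a like window elsewhere, 5 of 53 genes within 5 Mb of Dmrt3 on chromosome 19 were called in the same comparison (9.43%), close to the share around Dmrta2, although that window carries the intact and the mutated Dmrt3 locus on both sides of the comparison. In Dmrt3 KO against WT, where the state of the Dmrt3 locus differs, none of those 53 was called, against 0.0123% of all tested genes. With so few calls over all genes, this count cannot show whether genes near that locus differ.

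**Figure D4:**
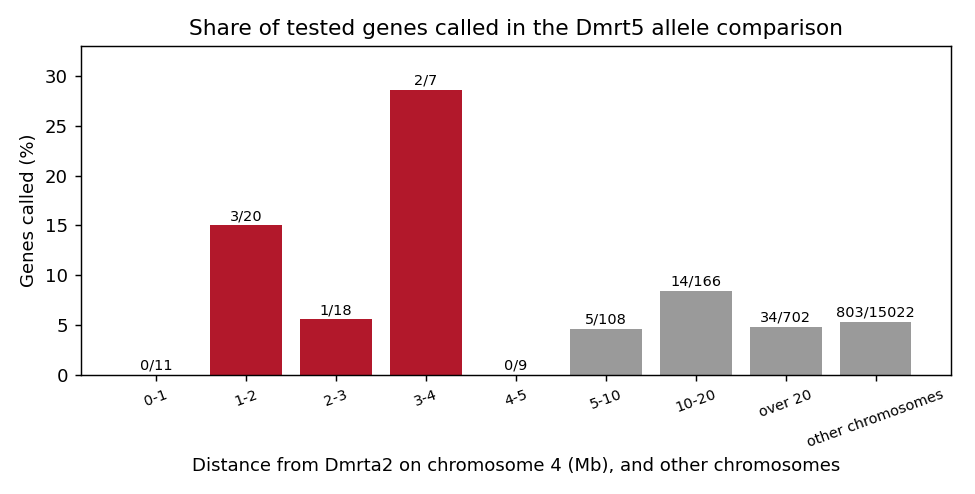
Percent of tested genes called by locus (y axis, linear from 0) in bands of distance from Dmrta2 on chromosome 4 in Mb, and on the other chromosomes, with the counts above each bar; red bars are the genes within 5 Mb. The bands within 5 Mb hold 7 to 20 genes each, and the bars range from 0 to 28.6%, the highest resting on 2 of 7 genes.

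The 5 called genes from 5 to 10 Mb included Cachd1, which encodes a membrane protein related to calcium channel subunits. Cachd1, 8.95 Mb away, fell by 1.17 on the log2 scale (edgeR adjusted p 0.000303). Just outside the window, Stil at 5.02 Mb, a centriole duplication factor, differed by -0.07 and Tal1 at 5.07 Mb, a blood cell transcription factor, by -0.33. By abundance, Gm12786 and A730015C16Rik were just inside the rule with 10 or more reads in 4 libraries, and Lexm and 9130410C08Rik with 5.

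Grouped by role, the transcription factors and cofactors Foxd2, Glis1, Ssbp3 and Btf3l4 had no call and a median log2 difference of 0.03. None of the 6 genes of cell cycle, replication and centriole function was called (median 0.16), nor any of the 4 RNA-binding, splicing and RNA-tailing genes (median -0.01). Of 7 genes listed under mitochondria, Echdc2 alone fell (median -0.03); that list also holds Hspb11, an intraflagellar transport protein, and Txndc12, of the endoplasmic reticulum. Among 7 genes of lipid and sterol metabolism, Scp2 alone rose and the median was 0.05. Of 12 genes of trafficking, ubiquitin and the membrane, Podn alone fell (median -0.06). The 4 genes of tubulin modification and neuronal function, Agbl4, Elavl4, Lrp8 and Rab3b, had a median of 0.23 and no call. The median over all tested genes was -0.00, and 2.61% of them were called higher and 2.75% lower. With lists this short, these counts set no role apart.

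A set of 3 pathways was read across the genome. None of the 19 tested genes of cholesterol synthesis was called by locus in either direction, with values from -0.14 to 0.17. None of 10 genes of Reelin signalling was called, with values from -0.12 to 0.48. That list includes Lrp8, the Reelin receptor ApoER2, which stood at 135 ± 49.6 CPM for WT, 109 ± 17.9 for Dmrt3 KO, 125 ± 11.9 for Dmrt5 KO and 155 ± 67.5 for the double KO. None of 8 centriole duplication genes was called, with values from -0.24 to 0.06, where 5.35% of all tested genes were called by locus. The average over the Dmrt3 backgrounds joined opposite signs. The centriole median was -0.35 in Dmrt5 KO against WT and 0.24 in the double KO against Dmrt3 KO. The Reelin median was -0.16 and 0.30, and that of cholesterol synthesis 0.05 and -0.02. No gene of these lists was called in either comparison.

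Per length, the genes of the region spanned from a length-normalised level (RPKM, per kilobase of exon) of 0.12 for Agbl4 and 0.13 for Mroh7 to 198 for Magoh, a core component of the exon junction complex, averaged over all libraries. Tceanc2 stood at 2.95, Echdc2 at 5.82, Podn at 0.234 and Scp2 at 10.7 on this scale, so these called genes were of low to middle abundance.

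A pair of Dmrt-named genes in the window were left out by the rule and are given for comparison. Dmrta2os, a noncoding gene on the minus strand just below Dmrta2 (109976738 to 109977813), does not overlap it. Its levels were 11.2, 15, 13.2 and 10.9 CPM in WT, 20.5, 14.4, 16.8, 17.2 and 16 in Dmrt3 KO, 21.9, 15.8, 20.3 and 22.1 in Dmrt5 KO, and 10.8, 11.8, 14.2, 14 and 10.4 in the double KO. The Dmrt5 KO libraries were above all WT libraries, and the double KO libraries were below all those of either single KO. It rose in Dmrt5 KO against WT (log2 fold change 0.67, edgeR adjusted p 0.0497) and fell in the double KO against Dmrt5 KO (-0.71, adjusted p 0.0499). The interaction was -1.15 ± 0.21 SE (edgeR adjusted p 0.0307), where 0.142% of all tested genes and none of the 65 genes of the region were called. Of the 65, 4 had an unadjusted interaction p under 0.05 (6.15%, against 9.22% of all genes), and DESeq2 called 1, Gm12786. The Dmrta2os calls were near the threshold: with 1 library left out, the interaction was called in 6 of 18 fits (edgeR adjusted p 0.0191 to 0.127, log2 value -1.25 to -1.07), and the rise and the fall in 4 of 18 fits each (adjusted p up to 0.199 and 0.237). The interaction was also not called with the replicate block, the mesenchyme covariate or no count filter (edgeR adjusted p 0.0869, 0.0636 and 0.0838), nor without the library with the most mesenchyme of each genotype (0.228). The block left the rise at an adjusted p of 0.0568 and the fall at 0.104, while DESeq2 called all 3 differences (adjusted p up to 0.00172). In the double KO against Dmrt3 KO the difference was -0.48 and not called by edgeR (adjusted p 0.0789), while DESeq2 called it (adjusted p 0.0241).

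Dmrtb1, a DM-domain gene best known from the germ line, lies 2.29 Mb below Dmrta2. Its levels were 10.9, 17.3, 17.4 and 8.74 CPM in WT, 24.8, 38.8, 17.7, 11.6 and 18.2 in Dmrt3 KO, 41.2, 39.5, 17.6 and 26 in Dmrt5 KO, and 74.6, 52.1, 47.6, 18 and 26.8 in the double KO. Every Dmrt5 KO and double KO library was above every WT library, and the Dmrt3 KO libraries overlapped all other groups. Dmrtb1 rose 2.13-fold by locus (log2 fold change 1.09 ± 0.28 SE, edgeR adjusted p 0.0295). With 1 library left out it was called in 9 of 18 fits (edgeR adjusted p 0.00706 to 0.0714), and the mesenchyme covariate gave 0.85 (adjusted p 0.298). It was called by DESeq2 (adjusted p 0.00273) and by edgeR with the replicate block (adjusted p 0.000858).

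**Figure D5:**
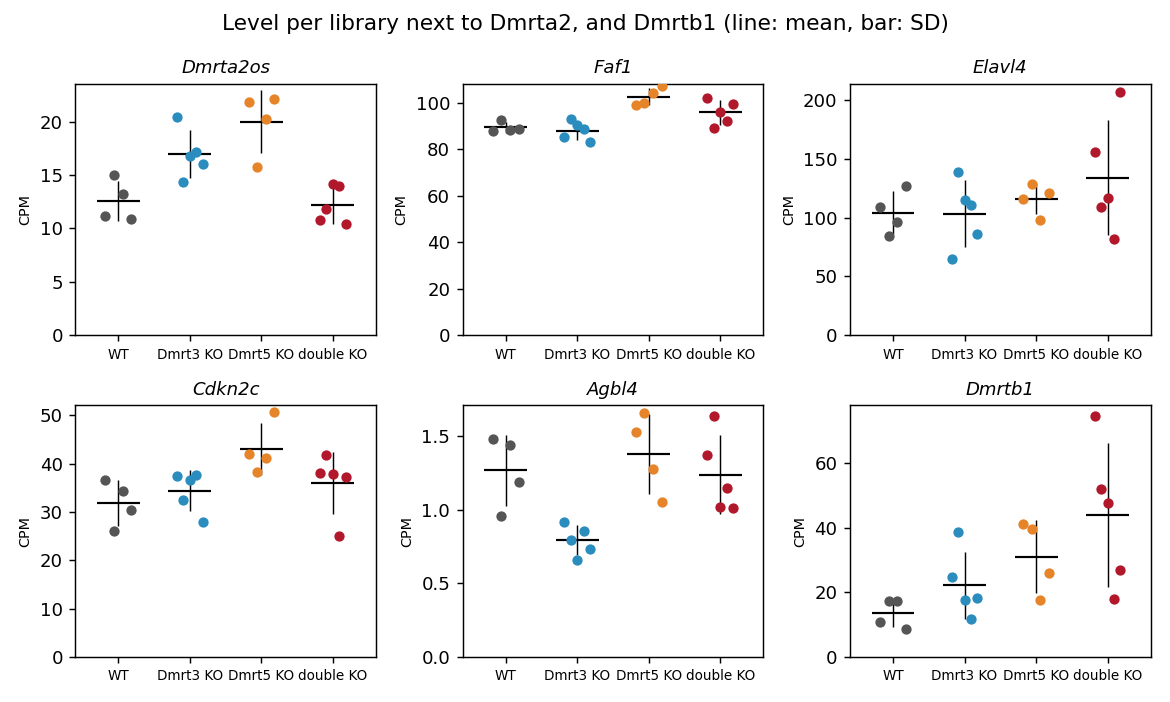
Level in CPM (y axis, linear from 0) of Dmrta2os, Faf1, Elavl4, Cdkn2c, Agbl4 and Dmrtb1, 1 point per library in WT (n = 4), Dmrt3 KO (n = 5), Dmrt5 KO (n = 4) and double KO (n = 5), with a line at the mean and a bar of 1 SD. Dmrta2os is high in Dmrt5 KO and back at the WT level in the double KO, Faf1 spans 83.2 to 107 CPM over all libraries, and Dmrtb1 is widely spread among the double KO libraries.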

How the data were processed

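Total RNA of 18 samples went into unstranded TruSeq v2 libraries, per the labels' protocols. The authors deposited raw read counts per Ensembl gene; per the submitters' processing notes STAR 2.3.0e, featureCounts 1.4.6-p1, DESeq2 1.8.2, bcl2fastq, CASAVA 1.8.2 and FastQC 0.10.1 were used with mm10, with no role stated for each. Neither annotation release nor strand setting is given in the sources used here. Identifiers were matched to GENCODE M21 (36602 of 38355), and unmatched ones held 0.397% of counts. Counts were fitted here with edgeR 4.0.16 (R 4.3.3): filterByExpr, TMM scaling, 1 mean per genotype over all 18 libraries, a quasi-likelihood test for 6 comparisons, two-sided, Benjamini-Hochberg adjustment over 16236 genes. CPM used TMM-scaled library sizes. Intervals come from the SE and residual degrees of freedom. The fit was tested on simulated data. The genes, lists and tests were chosen with earlier results of these data known.

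Named genes were every gene of the region called by locus, the 5 nearest to Dmrta2 on each side, called genes of the other comparisons and genes without library overlap; role groups gave further examples. Genes named beyond this rule (Tmem59, Lrp8, Magoh, Zfyve9, Gm12786, Trabd2b, Gm12829, the edges of the window and the excluded Dmrt genes) were chosen with their values known. Of the 6 genes called by locus, 1 is not reported here, and the plots by gene leave it out. Promoters came from RefSeq. Alternatives were RLE scaling, DESeq2 1.42.0, no count filter, fits of only the groups compared, a replicate block, 2 covariates, windows of 2.5 and 10 Mb, and leaving out each library. No replicates agreed within sampling noise, and none were merged.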

Additional observations from a re-analysis of the deposited data

Results flagged for a closer look

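Values of single libraries that lay far from the rest of their genotype were found in 2 of the 60 groups of libraries screened for 15 named genes, where chance alone flags about 1 in 20 groups. Scp2 stood at 48.2 CPM in double KO replicate 5, with the other double KO libraries at 41.4 to 43 CPM. Cdkn2c stood at 25 CPM in double KO replicate 4, with the others at 37.2 to 41.8 CPM. The Scp2 value lies on the side of its own kind of locus.

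The response of Dmrta2os, left out of the region by its name, passed the test for a difference between the Dmrt3 backgrounds near its threshold, with an interaction of -1.15 on the log2 scale (edgeR adjusted p 0.0307). It rose by 0.67 in Dmrt5 KO against WT (edgeR adjusted p 0.0497). In the double KO against Dmrt3 KO it stood at -0.48, called by DESeq2 (adjusted p 0.0241) and not by edgeR (adjusted p 0.0789). The interaction call was lost with the replicate block (edgeR adjusted p 0.0869), with the mesenchyme covariate (0.0636), without a count filter (0.0838), without the library with the most mesenchyme of each genotype (0.228), and in 12 of 18 fits that left out 1 library.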

How the results depend on the processing

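No called gene described here changed direction under any setting run. Tceanc2 and Scp2 remained called by locus in all of them, and Mroh7 in all but the mesenchyme covariate fit. When 1 library was left out, the edgeR adjusted p was up to 9.93e-07 for Tceanc2 and 0.0126 for Scp2. In the other settings it was up to 4.51e-06 for Tceanc2. For Scp2 it reached 0.0438 with the mesenchyme covariate, near the threshold, at a value of 0.49. Echdc2 and Podn lost their calls in several settings, with adjusted p up to 0.252 and 0.178, both with the mesenchyme covariate, where the Echdc2 value went from -0.62 to -0.38 and the Podn value from -0.68 to -0.60. By locus, 2 genes were higher and 4 lower. DESeq2 gave 4 higher, the mesenchyme covariate 1 higher, and a per-library slope of level on transcript length as covariate 4 higher and 8 lower. A window of 2.5 Mb gave 1 higher and 2 lower, and 10 Mb gave 5 higher. In Dmrt5 KO against WT, the number higher, 0 in the report, was 2 with DESeq2 and 1 with the length covariate, and the number lower was 0 within 2.5 Mb. In the double KO against Dmrt3 KO the number higher was 1 with DESeq2 and with the length covariate and 2 within 10 Mb, and the number lower was 1 within 2.5 Mb. DESeq2 called 1 gene, Gm12786, higher in the interaction. Counting Dmrta2os, a setting added after seeing the data, gave 1 higher in Dmrt5 KO against WT, 1 lower in the double KO against Dmrt5 KO and 1 lower in the interaction. Leaving out the library with the most mesenchyme of each genotype, also added later, gave 1 higher and 5 lower in the double KO against Dmrt3 KO. The cause of these shifts was not tested. By locus the share of all tested genes called moved as well, and such shares for the other comparisons under these settings are not given here. By locus the region and all genes stood at 12.3% and 8.15% with DESeq2, 18.5% and 12.8% with the length covariate, 6.15% and 3.17% with the mesenchyme covariate, 7.46% and 2.9% without a count filter, and 13.8% and 10.5% without double KO replicate 4, against 9.23% and 5.35%.

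With 1 library left out at a time, the number by locus ran from 2 to 4 higher and from 2 to 5 lower. In Dmrt5 KO against WT it ran from 0 to 1 higher, and in the double KO against Dmrt3 KO from 0 to 1 higher and from 2 to 5 lower. Over all genes the number by locus ran from 301 to 724 higher and from 338 to 984 lower. In Dmrt5 KO against WT the all-gene number ran from 14 to 89 higher. In the double KO against Dmrt3 KO it ran from 167 to 555 higher and from 229 to 882 lower. With a replicate block, 1 gene, Scp2, was higher in Dmrt5 KO against WT (adjusted p 0.0487), and Echdc2 by locus had an adjusted p of 0.0513. The replicate numbers gave no clear pairing of the libraries, and whether some of them share handling was not tested. Of 24 same-numbered pairs, 15 had a correlation of deviations over 0.1 (range -0.36 to 0.70), and 4 of 18 libraries correlated best with their own number. Depth limits what can be said of Mroh7, Podn, Agbl4 and the noncoding genes.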
